A study of Mus musculus with 8 samples.

Results

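The histone genes on the array were examined in Lats2-/- and Lats2+/+ mouse embryonic fibroblasts (MEFs). Members were the gene probes whose gene name began with Hist1h, Hist2h, Hist3h, H2af or H3f, and the expression values had no part in the choice. There were 62 such probes for 44 genes among 41174 gene probes with 27595 gene names. Of these, 45 probes for 35 genes belonged to the Hist clusters and are called replication-dependent here, and 17 probes for 9 genes belonged to the H2af and H3f names and are called variants. Tests were limited to probes that the scanner software marked as well above background in 2 or more of the 3 extracts of one genotype or the other. This left 57 histone probes, of which 41 were replication-dependent (33 genes) and 16 were variants (9 genes), among 22642 probes for 14725 genes.

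Replication-dependent histones supply the H2A, H2B, H3, H4 and linker H1 proteins that package newly copied DNA. Their genes lie in clusters, are transcribed in S phase, and give mRNAs that mostly end in a stem-loop in place of a poly(A) tail, so that their level follows DNA replication. Variant histones such as H2A.Z, macroH2A and H3.3 are made through the whole cell cycle from polyadenylated mRNAs, and H2A.Z and H3.3 are placed into chromatin by their own chaperones. The H2A.X gene H2afx gives both a polyadenylated mRNA and a stem-loop mRNA linked to replication.

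The study set RNA of Lats2-/- MEFs against that of Lats2+/+ MEFs. Lats2 encodes a kinase of the Hippo pathway. There were 3 litters, numbered 112, 116 and 121, and each gave 1 clone of each genotype, in the C57BL/6J strain and without treatment. Each of the 8 two-colour arrays held both extracts of a litter, of which litters 112 and 116 had 2 each and litter 121 had 4, and the dyes were swapped within each pair of arrays. Embryonic age and passage were not given in the sources used here. Arrays of a litter shared their extracts, so the litter was the replicate and p-values measure the spread between litters. Ratios are log2 values of Lats2-/- over Lats2+/+, and signals are log2 values after loess and scaling between arrays. In cultures, fewer cells in S phase and less histone RNA per cell cannot be told apart.

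Litters 112 and 116 were on slide 1 and litter 121 was on slide 2, so that slide, scan and litter 121 cannot be told apart. The share of gene probes well above background ranged from 52.9% to 61.3% over the channels. Of the 4 Lats2 probes, 1 was lower in Lats2-/- in every litter, by a log2 ratio of -1.33, -1.05 and -0.56 in litters 112, 116 and 121. The other 3 were lower in litters 112 and 116 but were 0.80 to 1.17 higher in the extract of litter 121 that is labelled Lats2-/-. Which exons the null allele lacks is not given in the sources used here. All 12 fibroblast markers passed the filter, with median log2 ratios of 0.26, 2.22 and -0.95 in litters 112, 116 and 121. In litter 121, 10 of them were lower in Lats2-/- and 2 were higher. Pdgfra was at -4.96 there, on a Lats2-/- signal of 6.30, and Thy1 and S100a4 were at -3.66 and -3.61. Of the other lineages, 1 of 6 epithelial, 1 of 5 endothelial, 4 of 6 blood and macrophage, 3 of 5 neural and 1 of 5 muscle markers passed the same filter. Of those that did not pass, Cdh1 (epithelial), Kdr (endothelial) and Dcx (neural) were well above background in only 1 extract. That was the Lats2-/- extract of litter 121, on all 4 arrays, at log2 ratios of 1.09, 0.50 and 0.26. The epithelial markers Krt8 and Krt18, which did not pass either, were well above background in 1 Lats2+/+ and 0 Lats2-/- extracts. Their log2 ratios in litter 116 were -0.30 and -0.40. Of the 3 neural markers Nes was 4.10 higher in Lats2-/- in litter 121, where Map2 was at -0.09 and Tubb3 at 0.40, while Map2 was at -2.03 in litter 112. The muscle marker Acta1 was 3.48 higher in litter 116. The part of these differences between cultures in the histone values was not tested.

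Promoters are shown for 5 genes that stand for the patterns described next. The H2A gene Hist1h2ab and the H4 gene Hist1h4d were lower in Lats2-/- in all 3 litters. The H2B gene Hist1h2bk was higher in litter 121. Of the variant genes, H2afz followed the clusters and H3f3a stayed level by its brightest probe. Each line holds the 250 bases before the RefSeq start on GRCm38.p6, read on the gene's strand. Capitals mark matches on either strand to the CCAAT box (CCAAT), the TATA box (TATAAA), the octamer bound by Oct factors (ATTTGCAT), an E2F-like site (TTTCCCGC or TTTGGCGC) or the core bound by TEAD factors (GGAATG). The windows are chr13:23750838-23751087 (plus strand), chr13:23581318-23581567 (plus strand), chr13:22035571-22035820 (plus strand), chr3:137864237-137864486 (plus strand) and chr1:180813606-180813855 (minus strand).
Hist1h2ab: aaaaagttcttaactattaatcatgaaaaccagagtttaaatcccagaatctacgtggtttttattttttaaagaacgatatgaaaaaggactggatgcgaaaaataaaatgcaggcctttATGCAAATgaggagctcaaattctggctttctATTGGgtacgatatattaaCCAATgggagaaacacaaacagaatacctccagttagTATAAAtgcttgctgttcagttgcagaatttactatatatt
Hist1h4d: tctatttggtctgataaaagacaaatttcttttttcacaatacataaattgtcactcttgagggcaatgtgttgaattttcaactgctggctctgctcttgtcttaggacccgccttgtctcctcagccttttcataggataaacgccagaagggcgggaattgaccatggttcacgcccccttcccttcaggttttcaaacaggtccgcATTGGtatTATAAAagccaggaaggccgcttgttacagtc
Hist1h2bk: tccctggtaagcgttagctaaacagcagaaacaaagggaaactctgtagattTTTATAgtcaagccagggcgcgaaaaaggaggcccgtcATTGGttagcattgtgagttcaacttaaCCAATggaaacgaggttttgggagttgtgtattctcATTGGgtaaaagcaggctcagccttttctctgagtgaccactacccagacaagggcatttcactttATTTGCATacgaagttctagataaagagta
H2afz: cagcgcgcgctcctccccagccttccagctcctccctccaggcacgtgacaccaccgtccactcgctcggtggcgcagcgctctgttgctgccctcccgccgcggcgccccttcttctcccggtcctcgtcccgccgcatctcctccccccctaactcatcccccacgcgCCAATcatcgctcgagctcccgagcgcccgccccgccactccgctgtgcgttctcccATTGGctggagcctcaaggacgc
H3f3a: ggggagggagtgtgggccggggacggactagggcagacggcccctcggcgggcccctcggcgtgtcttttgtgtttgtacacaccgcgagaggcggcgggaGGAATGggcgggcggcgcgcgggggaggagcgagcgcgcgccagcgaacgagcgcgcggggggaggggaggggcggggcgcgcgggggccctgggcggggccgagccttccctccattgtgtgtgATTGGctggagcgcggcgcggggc
A window was at hand for 37 of the 44 genes, which came to 36 windows since Hist3h2ba and Hist3h2bb matched the same RefSeq gene. The windows of Hist1h2aa and Hist1h2ba overlap on opposite strands. A CCAAT box lay in 26 of 29 replication-dependent windows and 5 of 7 variant windows, against 33.8% of 32851 promoters. A TATA box lay in 17 of 29 and 1 of 7, against 12.4%, and the octamer in 10 of 29 and 1 of 7, against 1.6%. The E2F-like letters were found in 1 of 29 and 0 of 7 windows, against 1.3%. The TEAD letters were found in 0 of 29 replication-dependent windows and in 1 variant window, that of H3f3a, against 12.6% of all promoters. These matches are a description of the letters in the window and not of binding.

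Replication-dependent histone genes were mostly lower in Lats2-/- in litters 112 and 116 and mostly higher in litter 121. The median log2 ratio over 33 genes was -0.39, -0.31 and 0.23 in litters 112, 116 and 121, where the median over all genes was 0.02, 0.01 and 0.01. With the processed signals of the scanner software the replication-dependent median of litter 112 was -0.65. Of the 33 genes, 27 were lower in litter 112 and 28 in litter 116, but only 6 in litter 121. The 9 variant genes had medians of -0.24, -0.37 and 0.08, with 7, 7 and 3 genes lower. Over the 3 litters the mean log2 ratio had a median of -0.12 for replication-dependent genes and -0.07 for variants. That is small beside the spread of the litter medians, whose SD was 0.33 and 0.23.

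**Figure D1:**
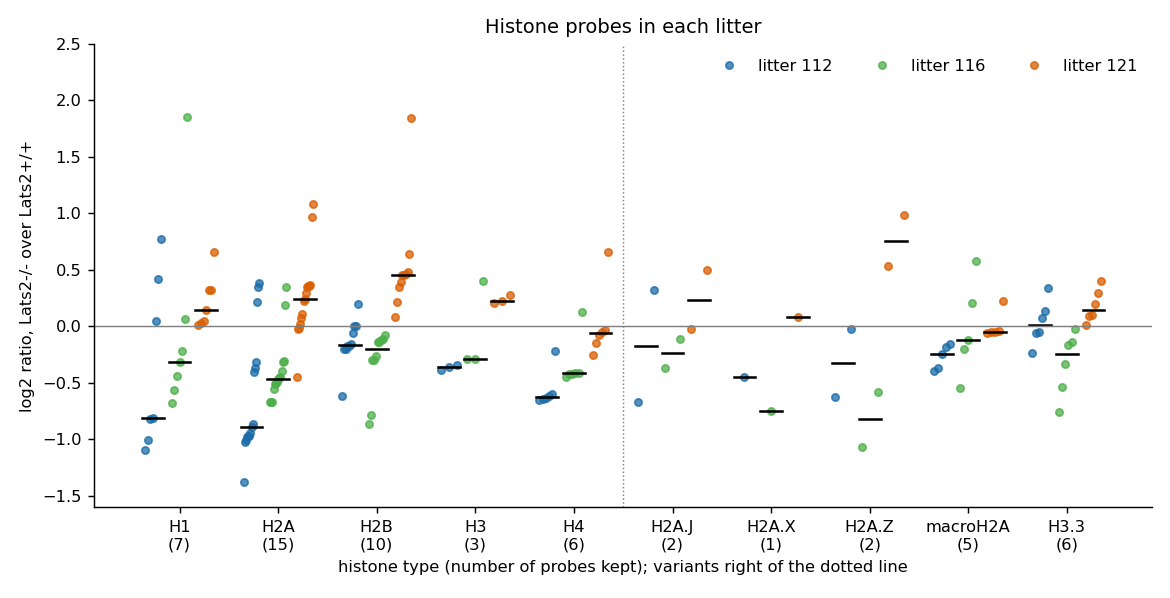
Log2 ratio of Lats2-/- over Lats2+/+ (vertical axis) for the 57 histone probes that passed the filter, by histone type (horizontal axis) and litter (colour). Points are probes and black bars are medians; most replication-dependent H2A and H4 probes sit below 0 in litters 112 and 116, and in litter 121 most H2A probes are above 0 and most H4 probes just below it.

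No probe on the array passed the limma test at an adjusted p under 0.05, a share of 0% of 22642 probes, and the smallest adjusted p of a histone probe was 0.711. At an unadjusted p under 0.05 limma called 1549 probes on the array, 3.29% of probes as lower and 3.56% as higher in Lats2-/-. Among the 57 histone probes 3 were lower and 0 were higher, all 3 of them replication-dependent. That is 5.26% of the histone probes, near the background. Read by direction, 8 of 41 replication-dependent and 2 of 16 variant probes were lower in all 3 litters, against 14.8% of all probes. Only 2 of 41 and 0 of 16 were higher in all 3 litters, against 15%.

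Lower replication-dependent probes exceeded the background share most in litter 112. There, 19 of 41 replication-dependent and 2 of 16 variant probes were at least 1.5-fold lower in Lats2-/-, against 5.06% of probes, and 1 and 0 were at least 1.5-fold higher, against 7.53%. Litter 116 had 6 of 41 and 3 of 16 lower, against 9.1%, and 1 and 0 higher, against 10.7%. In litter 121 the count of lower probes was 0 in both classes, against 6.54%, and 6 of 41 and 1 of 16 were higher, against 7.17%. Each litter holds 1 extract per genotype, so these counts carry no test between genotypes. The count of lower histone probes at an unadjusted p under 0.05 depended on the litters used. It was 0 of 57 without litter 112, against 2.39% of probes, and 1 of 57 without litter 116, against 2.44%. Without litter 121 it was 17 of 57, against 3.1%. Litter 121 was left out with its opposite median known, so this count is a description. These 17 probes were 15 replication-dependent ones together with H2afx and H2afz, and their adjusted p was 0.734. Histone copies share much of their sequence, so that probes of a type can see the same mRNAs and are not independent.

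**Figure D2:**
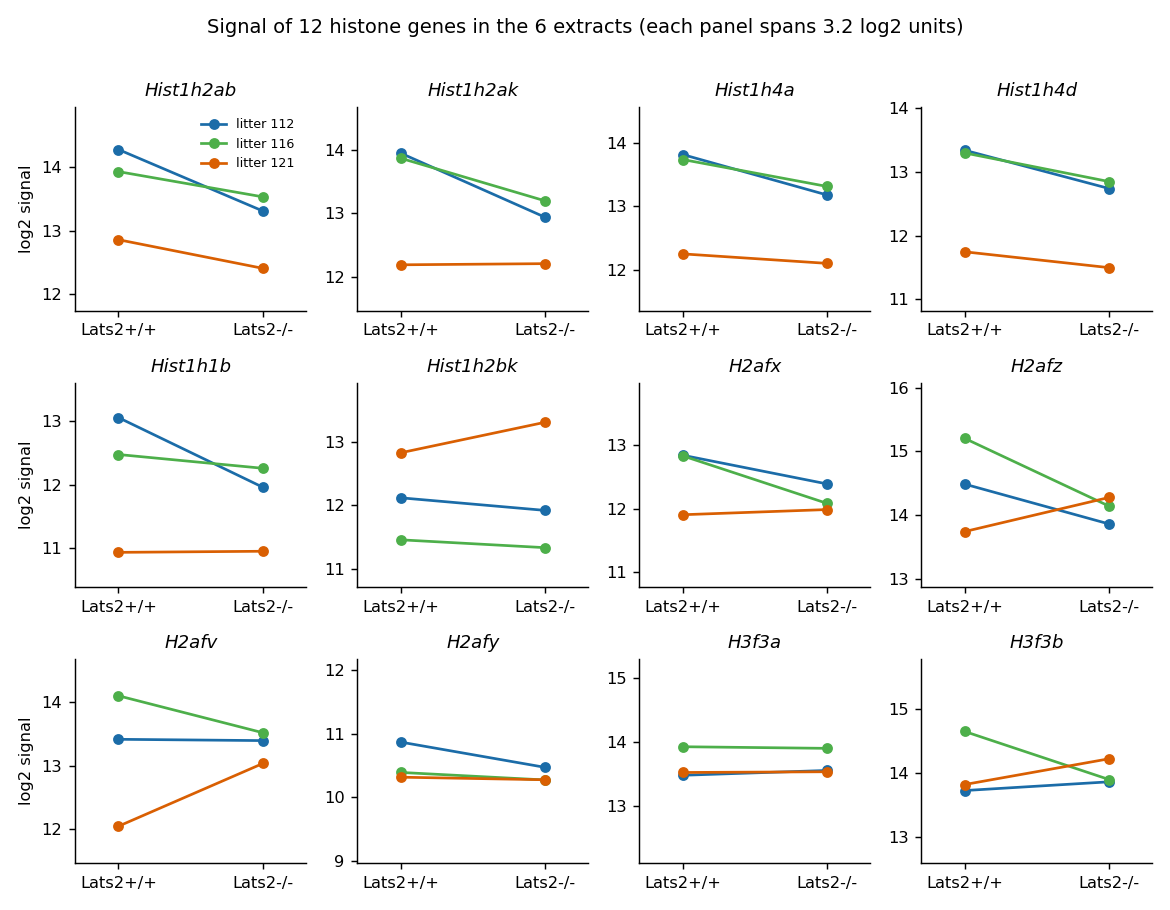
Log2 signal (vertical axis) of 12 histone genes in the Lats2+/+ and Lats2-/- extract of each litter, joined by a line per litter. Lines of Hist1h2ab, Hist1h4a and Hist1h4d slope down in all 3 litters, those of H2afz and H2afv slope up in litter 121 and down or level in the others, and those of H3f3a are nearly flat.

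H2A is a core histone that pairs with H2B on the outside of the nucleosome. Among the 10 H2A genes the median log2 ratio was -0.95, -0.50 and 0.26 in litters 112, 116 and 121, with 9, 9 and 2 genes lower. Hist1h2ab had the largest mean difference of the replication-dependent genes and was the clearest member. Its Lats2-/- signals were 13.31, 13.53 and 12.41 in litters 112, 116 and 121, where the Lats2+/+ signals were 14.28, 13.93 and 12.86. Each Lats2-/- extract was below its littermate, and the groups overlapped only through the low level of litter 121 in both genotypes. The log2 ratio was -0.97, -0.40 and -0.45 and lay below 0 on all 8 arrays. Its mean was -0.60 (n = 3 litters, SE 0.16, limma p of 0.0218 and 0.711 after adjustment), a 1.52-fold difference. The probe lies on mouse chromosome 13 at 23758988 to 23759047 (mm8, plus strand).

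Probes of Hist1h2ai, Hist1h2ak and Hist1h2af, which are other H2A genes of this cluster, were lower together with Hist1h2ab in litters 112 and 116. In litter 121 those of Hist1h2ai and Hist1h2ak were level. The signal of Hist1h2ai was 12.32, 12.53 and 11.47 in Lats2-/- and 13.30, 13.20 and 11.49 in Lats2+/+, and that of Hist1h2ak was 12.94, 13.20 and 12.21 against 13.95, 13.87 and 12.19. Log2 ratios in litters 112, 116 and 121 were -0.98, -0.67 and -0.02 for Hist1h2ai and -1.01, -0.67 and 0.02 for Hist1h2ak. Their means of -0.56 (SE 0.22) and -0.55 (SE 0.24) gave limma p values of 0.0714 and 0.0835, with adjusted p values of 0.716 and 0.723. Hist1h2af had 2 probes that disagreed in litter 121, at -0.02 and 0.36, and had nearly equal ratios in litter 112, at -1.02 and -0.97. The probes of Hist1h2aa and Hist2h2ac gave profiles close to that of the latter Hist1h2af probe, with -0.86 to -0.94 in litter 112, -0.47 to -0.50 in litter 116 and 0.35 to 0.36 in litter 121. With 1 probe per gene, Hist2h2aa1 was the H2A gene with the highest ratio in litter 121, where its log2 ratio was 0.97 after -0.31 and -0.31 in the other litters.

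The H2A gene Hist3h2a was seen differently by its probes. One probe had signals of 12.99, 13.92 and 12.74 in Lats2-/- and 14.37, 14.47 and 12.51 in Lats2+/+, with log2 ratios of -1.38, -0.55 and 0.23 and a mean of -0.57 (SE 0.35, limma p of 0.180, adjusted p of 0.761). Another was higher in Lats2-/- in every litter, at 0.39, 0.19 and 1.08. These 2 probes span 627 bases on the same strand while the RefSeq gene is 508 bases long, so they may not see the same transcript. A further probe lay on the opposite strand, and the remaining one was not well above background in enough extracts.

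H4 forms the nucleosome core with H3, and its gene copies encode the same protein. Of 6 H4 probes 5 were lower in Lats2-/- in all 3 litters, against 14.8% of all probes. In litter 121 the sign of Hist1h4f and of the brighter Hist1h4d probe differed between the dye orientations. Hist1h4a had signals of 13.18, 13.31 and 12.10 in Lats2-/- and of 13.81, 13.73 and 12.25 in Lats2+/+. Its log2 ratios were -0.64, -0.42 and -0.15, with a mean of -0.40 (SE 0.14, limma p of 0.0464, adjusted p of 0.711). Hist1h4a was lower on all 8 arrays, and the difference was smallest in litter 121, where both extracts were dimmest. The first Hist1h4d probe had signals of 12.74, 12.85 and 11.50 against 13.34, 13.30 and 11.75, and log2 ratios of -0.60, -0.45 and -0.25. Its mean was -0.43 (SE 0.12, limma p of 0.0241, adjusted p of 0.711), while the brighter Hist1h4d probe had a mean of -0.37 (SE 0.16, limma p of 0.0822, adjusted p of 0.723). These probes lie on chromosome 13 (mm8) at 23768497 to 23768556 for Hist1h4a and at 23589103 to 23589162 for the first of Hist1h4d. Hist1h4f and Hist2h4 followed the same course, with means of -0.36 and -0.37. Hist1h4i stood apart, at -0.21, 0.12 and 0.66.

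H1 binds the linker DNA between nucleosomes. The 6 H1 genes had medians of -0.82, -0.26 and 0.10 in litters 112, 116 and 121, and no H1 gene was lower in litter 121. Hist1h1b signals were 11.96, 12.25 and 10.95 in Lats2-/- and 13.05, 12.47 and 10.93 in Lats2+/+, which gave log2 ratios of -1.09, -0.22 and 0.02 (mean -0.43, SE 0.26, limma p of 0.179, adjusted p of 0.761). Its difference thus rested mainly on litter 112. Hist1h1d was read by 2 probes, of which the brighter had -0.82, -0.56 and 0.05 (mean -0.45, SE 0.21, limma p of 0.104, adjusted p of 0.729) and the other 0.42, -0.68 and 0.66. The pair spans 1811 bases although the RefSeq gene is 776 bases long. Hist1h1a was dim and inconstant, with signals of 6.39, 9.06 and 7.15 in Lats2-/- and 7.39, 7.20 and 6.83 in Lats2+/+. It was the only member with at least a 2-fold difference in 2 litters, and these ran in opposite directions, lower in litter 112 and 1.86 higher in litter 116. Hist1h1c, of which polyadenylated transcripts are known, was 0.78, -0.44 and 0.32. The testis H1 gene Hist1h1t was near background, with ratios of 0.04 to 0.07.

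H2B genes were nearer to 0 than the other types in litter 112 and were higher in litter 121. Their 9 genes had medians of -0.16, -0.26 and 0.46, with 6, 9 and 0 genes lower. The brighter probe of Hist1h2bk had signals of 11.92, 11.33 and 13.30 in Lats2-/- and 12.12, 11.46 and 12.82 in Lats2+/+. Its log2 ratios of -0.20, -0.12 and 0.48 were shared closely by Hist1h2bm (-0.17, -0.13 and 0.46) and Hist3h2bb (-0.17, -0.14 and 0.46). Hist3h2ba had the widest span of the H2B genes, at -0.61, -0.87 and 1.85, on signals of 6.35 to 8.36. Hist3h2ba and Hist3h2bb matched the same RefSeq gene, which is 462 bases long, but are counted here as separate names. Their probes lie on chromosome 11 (mm8) at 58765641 to 58765700 and at 58770390 to 58770449, on opposite strands, so they may not see the same transcript. The 3 H3 genes had medians of -0.36, -0.28 and 0.22. Of these, Hist1h3d and Hist2h3c1 were almost the same, at -0.34, -0.29 and 0.21 and at -0.36, -0.28 and 0.22, while Hist1h3a was near background.

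Labelling of the RNA started from an oligo-dT primer, whereas most of the replication-dependent mRNAs lack a poly(A) tail. The part of this in the ratios was not tested. For members not well above background on any array of 1 extract of a litter but measured in the other, the bounds ran from at least 1.03-fold for Hist1h1t to at least 1.31-fold for Hist1h3a, both in litter 112. In the same litter Hist1h1a and Hist3h2ba were well above background on 1 of the 2 Lats2-/- arrays, so that their ratios there rest partly on signal near background, and the dimmer Hist1h1d probe had the same limit in Lats2+/+.

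By the brightest probe of each gene, the 9 variant genes differed among themselves. H2afx, H2afz, H2afv and H2afj had the signs of the replication-dependent medians in each litter, and H3f3a stayed level. Of these signs, that of H2afv in litter 112 and that of H2afx in litter 121 differed between the dye orientations. H2afx, which encodes H2A.X, the variant phosphorylated at DNA breaks, had signals of 12.39, 12.08 and 11.98 in Lats2-/- and 12.84, 12.83 and 11.90 in Lats2+/+. Its log2 ratios were -0.45, -0.75 and 0.08, with a mean of -0.37 (SE 0.20, limma p of 0.138, adjusted p of 0.754). H2afz encodes H2A.Z, a variant found beside active promoters. Its signals were 13.86, 14.14 and 14.28 against 14.49, 15.20 and 13.74, so that litters 112 and 116 were lower and litter 121 was higher, at -0.63, -1.06 and 0.54 (mean -0.38, SE 0.36, limma p of 0.345, adjusted p of 0.834). The other H2A.Z gene, H2afv, had signals of 13.40, 13.52 and 13.04 against 13.42, 14.10 and 12.05. It was level in litter 112, lower in litter 116 and higher in litter 121, at -0.02, -0.58 and 0.99 (mean 0.13, SE 0.34, limma p of 0.729, adjusted p of 0.950). The 2 H2A.Z genes thus had the largest differences of any variant in litter 121. A further H2afz probe lies on another chromosome and was not well above background.

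H2afj, a variant close to canonical H2A, was read by 2 probes that disagreed. The brighter one gave -0.67, -0.37 and 0.50 (mean -0.18, SE 0.27, limma p of 0.544, adjusted p of 0.908) on signals of 15.46, 15.77 and 15.48 in Lats2-/- and 16.13, 16.14 and 14.98 in Lats2+/+, a profile like that of the H2A probes above. The other gave 0.32, -0.11 and -0.02. MacroH2A carries a large domain outside the nucleosome and is linked to silent chromatin. H2afy, which encodes macroH2A1, had signals of 10.47, 10.27 and 10.27 against 10.87, 10.39 and 10.32, and its ratios of -0.40, -0.12 and -0.04 (mean -0.19, SE 0.12, limma p of 0.208, adjusted p of 0.773) were below 0 on all 8 arrays. A further H2afy probe was close to it, at -0.37, -0.20 and -0.05, and another was -0.15, -0.54 and 0.23. H2afy2 was dim, with signals of 6.41 to 7.30, and gave -0.18, 0.21 and -0.05 (mean -0.01, SE 0.13, limma p of 0.949, adjusted p of 0.991). H2afy3 had signals of 11.52, 12.66 and 10.91 against 11.76, 12.07 and 10.97, with ratios of -0.24, 0.58 and -0.06 (mean 0.09, SE 0.20, limma p of 0.673, adjusted p of 0.942).

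H3f3a and H3f3b encode the same protein, H3.3, which replaces H3 outside of replication. H3f3a was nearly flat, with signals of 13.55, 13.90 and 13.53 in Lats2-/- and 13.48, 13.92 and 13.52 in Lats2+/+. The ratios were 0.08, -0.03 and 0.01 (mean 0.02, SE 0.10, limma p of 0.842, adjusted p of 0.976). In each litter the sign of this brightest probe differed between the dye orientations. The other 2 H3f3a probes had means of -0.04. Their ratios of -0.06, -0.14 and 0.09 and of -0.05, -0.16 and 0.10 had the signs of the replication-dependent medians. H3f3b varied more between litters, with signals of 13.86, 13.90 and 14.22 against 13.73, 14.65 and 13.82 and ratios of 0.14, -0.76 and 0.40 (mean -0.07, SE 0.27, limma p of 0.806, adjusted p of 0.967). The mean of its probes lay between -0.09 and 0.00. None of the variant means passed the test.

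The litter pattern of the class medians was present on each array and in both dye orientations. Median log2 ratios of replication-dependent genes were -0.46 and -0.37 on the arrays of litter 112, -0.32 and -0.37 on those of litter 116, and 0.24, 0.29, 0.26 and 0.24 on those of litter 121. Variant medians were -0.30 and -0.11, then -0.24 and -0.49, then 0.19, 0.25, 0.30 and 0.27. In litter 112 the sign differed between the dye orientations for 3 of 33 replication-dependent genes and 3 of 9 variant genes (H2afv, H2afy3, H3f3a). In litter 116 it differed for 0 of 33 and 1 of 9 (H3f3a). In litter 121 it differed for 8 of 33 and 4 of 9. These were Hist1h1b, Hist1h1e, Hist1h2ae, Hist1h2ai, Hist1h2ak, Hist1h4d, Hist1h4f and Hist2h2bb, and the variants H2afx, H2afy2, H2afy3 and H3f3a. The array medians of the variants thus rest on partly different genes and lie above the 0.08 found after averaging each gene over the arrays of the litter. The all-gene median lay between -0.01 and 0.04 on every array. Arrays of a litter hybridised the same extracts, so they repeat the labelling and not the culture.

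**Figure D3:**
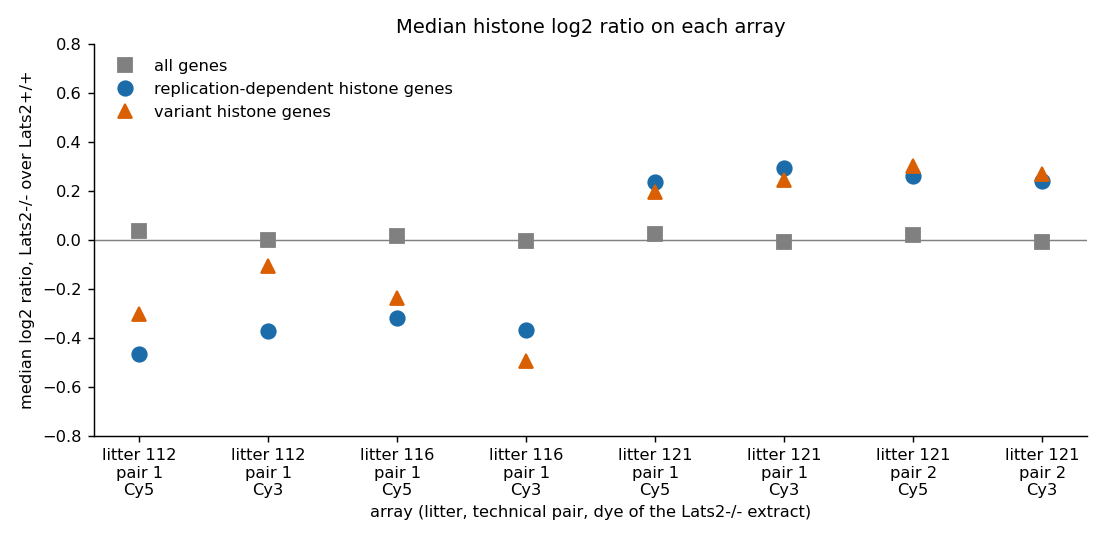
Median log2 ratio of Lats2-/- over Lats2+/+ (vertical axis) on each of the 8 arrays (horizontal axis, with litter, technical pair and the dye of the Lats2-/- extract) for all genes, 33 replication-dependent and 9 variant histone genes. Both histone classes sit below 0 on the 4 arrays of litters 112 and 116 and above 0 on the 4 arrays of litter 121, whichever dye was used.

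Litter 121 also differed from the other litters within a genotype. In Lats2+/+ its signal was lower than the mean of litters 112 and 116 for 23 of 33 replication-dependent and 9 of 9 variant genes, with median differences of -0.68 and -0.93 against -0.04 for all genes. In Lats2-/- the medians were -0.04 and -0.19, against -0.05 for all genes. By type, the Lats2+/+ medians were -1.06 for H1, -1.24 for H2A, -0.61 for H3 and -1.31 for H4, while H2B was 1.02 higher. The Lats2-/- medians were -0.74 for H1, -0.19 for H2A, -0.070 for H3 and -0.82 for H4, while H2B was 1.68 higher, so that the types differed in litter 121 in this genotype too. At least a 2-fold lower Lats2+/+ signal in litter 121 was found for 17 of 41 replication-dependent and 3 of 16 variant probes, against 3.12% of all probes. At least a 2-fold higher one was found for 7 of 41 and 0 of 16, against 4.49%. Those higher were probes of 5 H2B genes, the dimmer Hist1h1d probe and Hist1h1c, which was 2.16 higher in Lats2-/- and nearly as much higher in Lats2+/+. Hist1h2bc, an H2B gene of which polyadenylated transcripts are known, was 1.79 and 2.30 higher. With 1 extract per genotype and litter these are descriptions without a test, and litter, slide and scan cannot be told apart.

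**Figure D4:**
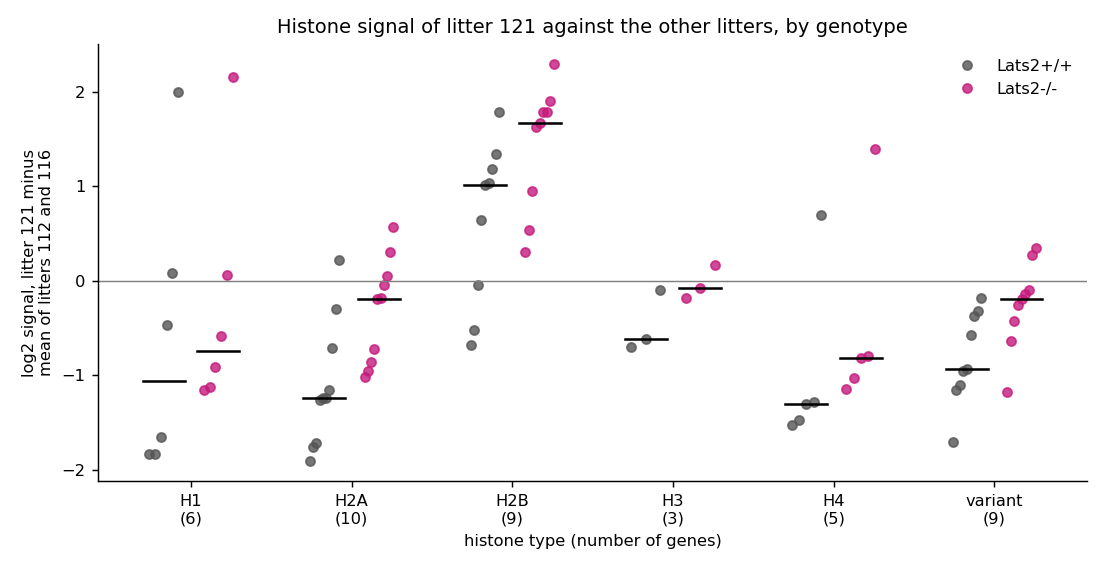
Log2 signal of litter 121 minus the mean of litters 112 and 116 (vertical axis) for each histone gene, by type (horizontal axis) and genotype (colour), with medians as bars. Most H2A and H4 genes lie below 0 and most H2B genes above 0 in both genotypes, and the H2A genes lie further below 0 in Lats2+/+.

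Genes that work with histones were read from lists made by function, with earlier results of these data known. The 16 S phase genes, which serve DNA replication, had median log2 ratios of -0.69, -0.79 and 0.12 in litters 112, 116 and 121, with 15, 15 and 5 genes lower. Their litter pattern had the same signs as that of the replication-dependent histones. At an unadjusted limma p under 0.05, against 3.29% of all probes lower and 3.56% higher, 3 of the 16 were lower and 0 higher: the helicase gene Mcm6 (-0.73, -0.76 and -0.54, mean -0.68), the licensing gene Cdt1 (-0.85, -0.96 and -0.31, mean -0.71) and the polymerase gene Pola1 (-0.64, -0.40 and -0.40, mean -0.48). Pcna, the sliding clamp of replication, was -0.47, -0.99 and 0.40, and the helicase gene Mcm5 was -0.98, -0.35 and -0.23 (mean -0.52). No gene of any list passed the adjusted threshold.

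Factors that transcribe histone genes and process their mRNAs were closer to the all-gene median than the S phase genes in each litter. In litter 112 they were no closer to it than the replication-dependent histones (-0.39). The 20 measured genes had medians of -0.40, -0.09 and 0.02, and 1 of them was lower and 0 were higher at the unadjusted threshold. That is near the shares of all probes, 3.29% lower and 3.56% higher. The lower gene was Srrt, a cap-binding partner in histone mRNA processing, at -0.46, -0.21 and -0.27. Slbp, which binds the histone stem-loop, was -0.18, -0.57 and 0.11. Npat, the activator of histone transcription, was -0.41, -0.36 and 0.07. Casp8ap2, found with NPAT at histone genes, was -0.64, 0.57 and 0.13. Slbp and Npat had the signs of the replication-dependent histones in each litter, and Casp8ap2 differed from them in litter 116.

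**Figure D5:**
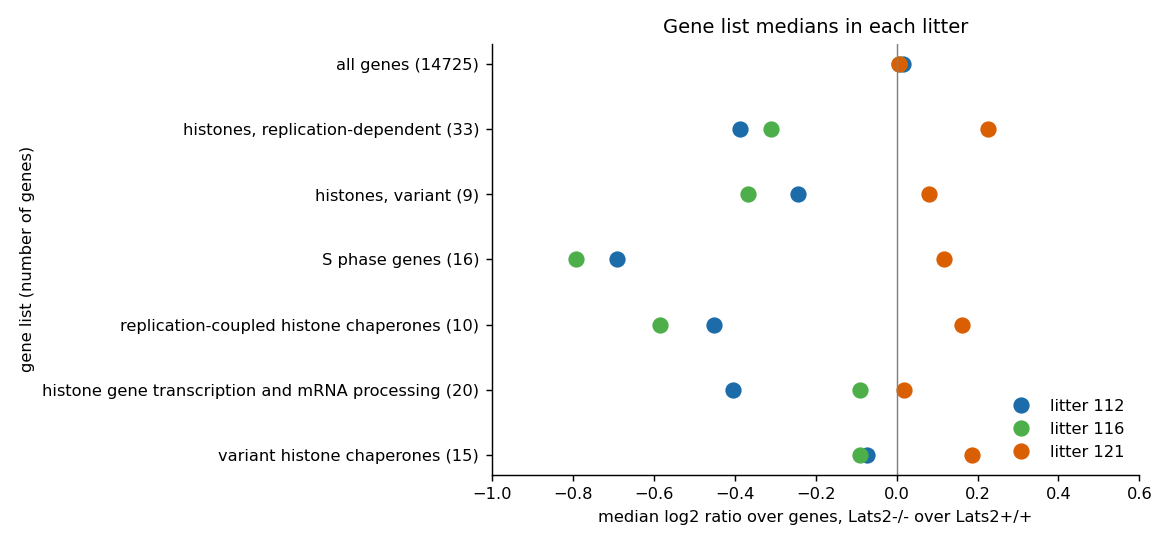
Median log2 ratio of Lats2-/- over Lats2+/+ (horizontal axis) in each litter (colour) for 7 gene lists (vertical axis, with the number of genes). S phase genes and replication-coupled chaperones have the signs of the histone genes in each litter, and variant histone chaperones lie nearer to 0 than these in litters 112 and 116 but not in litter 121.

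Chaperones that deliver histones at the replication fork had medians of -0.45, -0.58 and 0.16 over 10 genes. At the unadjusted threshold 0 of 10 passed, against 3.29% of all probes lower and 3.56% higher. Chaf1a, the large subunit of chromatin assembly factor 1, was -0.59, -0.46 and 0.11, and its partner Chaf1b was 0.14, -0.78 and 0.85. Asf1b, an H3 and H4 chaperone of dividing cells, was -0.89, -0.79 and 0.18. Nasp, which holds the soluble pool of H3 and H4, was -1.07, 0.53 and -0.05. Chaperones of variants had medians of -0.07, -0.09 and 0.19 over 15 genes, with 0 of 15 past the unadjusted threshold, against the same shares. Hira, which places H3.3, was -0.40, -0.42 and -0.06, and Asf1a was 0.38, -0.30 and -0.04.

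Of 7 other histone genes that the naming rule left out, 5 passed the filter. At the unadjusted threshold 1 of these was lower and 0 higher, against 3.29% and 3.56% of all probes. That gene was H1f0, the linker histone H1.0 that accumulates in resting cells, at -1.22, -0.64 and -0.29 (mean -0.72, limma p of 0.0313, adjusted p of 0.711). H1fx, another linker histone, was 0.07, 0.34 and 0.08. The H4 gene Hist4h4 was -0.60, -0.34 and -0.13 (mean -0.36, limma p of 0.0609, adjusted p of 0.711), close to the H4 members. The oocyte linker histone gene H1foo was dim, at -0.04, -0.02 and 0.01. Cenpa, the H3 variant of the centromere, was -0.51, -0.77 and 0.34.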

How the data were processed

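RNA of the MEFs was labelled from an oligo-dT-T7 primer and hybridised to Agilent 4x44K whole mouse genome arrays. The authors extracted the scans with Agilent Feature Extraction (version 10.5.1.1 per the labels, and 10.7.3.1 in the headers). Deposited files give intensity values of each spot and its background, processed intensity values, flags, and log10 ratios of red over green. The deposited value table holds the same log10 ratios as Lats2-/- over Lats2+/+, to within 0.00500. Probe positions are those of mm8, and the authors' normalization beyond this is not given in the sources used here.

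Mean intensities were corrected with normexp (offset 50) with limma 3.58.1 (R 4.3.3). Control spots and 860 outlier gene spots over the 8 arrays were left out, no gene spot was saturated, and ratios were normalized by loess within arrays. Signals per extract were scaled by Aquantile. Repeat spots, dye swaps and technical pairs were averaged to 1 log2 ratio per litter. Litter ratios were tested against 0 with lmFit and eBayes, two-sided, with Benjamini-Hochberg adjustment over 22642 probes. A gene was represented by its kept probe with the highest mean signal. The study's methods ask for 2-fold with a t-test p under 0.05, which was run as an alternative. Precision is limited by there being 3 litters and 8 arrays. The fit was tested on simulated data.

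Extracts are paired by litter, as the clone names give it. The correlation of their deviations from the genotype means was 0.460, 0.298 and 0.466 in litters 112, 116 and 121. Both signals of a litter come from the same spots of the same arrays, which can raise this correlation whatever the litter. It is therefore no test of the pairing. Named genes were every variant gene, the 8 replication-dependent genes with the largest mean ratio, those with an unadjusted p under 0.05, members at least 2-fold different in 2 litters, and 15 genes fixed by name, while list genes needed an unadjusted p under 0.05; others named were chosen after their values were seen. Members and lists were chosen with earlier results of these data known. All 62 probes matched a RefSeq gene.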

Additional observations from a re-analysis of the deposited data

Results flagged for a closer look

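The replication-dependent histone genes were mostly lower in Lats2-/- in litters 112 and 116 and mostly higher in litter 121. However, 4 of the 5 H4 genes were lower in litter 121 too. For Hist1h4d and Hist1h4f among these, the sign there differed between the dye orientations. The median log2 ratio of the replication-dependent genes was -0.39, -0.31 and 0.23 in litters 112, 116 and 121. The variant histone genes had medians of -0.24, -0.37 and 0.081, with 3 of 9 genes lower in litter 121. The difference between litters was not tested, since each litter holds 1 extract per genotype. Litter 121 is also the litter in which 3 of the 4 Lats2 probes ran against the label and the only one on slide 2, and the part of either in the histone values was not tested.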

How the results depend on the processing

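In each alternative the sign of the class medians was kept. With 3 litters the median lay between -0.23 and -0.067 for replication-dependent genes and between -0.14 and -0.053 for variants. Without litters 112, 116 and 121 it was -0.065, -0.066 and -0.32 for the former, against -0.12 with all 3, and -0.0070, -0.085 and -0.30 for the latter, against -0.071. The litter medians of replication-dependent genes ranged from -0.65 to -0.37 in litter 112, -0.44 to -0.31 in litter 116 and 0.19 to 0.32 in litter 121, and those of variants from -0.39 to -0.18, -0.50 to -0.29 and 0.058 to 0.087. The count of histone probes past an unadjusted p under 0.05, 3 here, was 1 (Hist1h2ab) with the deposited value table and also with processed signals, 6 with median centring and 1 with the methods' t-test (Hist1h1t, higher in Lats2-/-). Leaving out a litter gave 0 to 17. With litter as a replicate block over arrays it was 10, and 8 with a dye term as well, while 0 passed with no replicate block. Probes past that threshold over the array numbered 2623 without a filter and 554 with no replicate block. They numbered 2998 with the replicate block and 2852 with the block and dye term. With the value table, processed signals, median centring and the t-test they numbered 1503, 1508, 1541 and 1348, against 1549 here. In that order, 3.68%, 3.7%, 3.76% and 3.17% of all probes were lower, and 1, 1, 6 and 0 of 57 histone probes. With the replicate block 6.13% of all probes and 9 of 57 histone probes were lower. With the dye term as well these were 5.78% and 7 of 57. The block, which counts arrays of shared extracts, put 341 probes past the adjusted threshold, or 203 with the dye term, of which 0 were histone probes, and every other alternative put 0. The study's threshold of 2-fold with the methods' t-test called 71 probes, none after Benjamini-Hochberg adjustment and 0 of them histone probes. The 3 probes called here lost the unadjusted call with no replicate block, with the methods' t-test and without litter 112. Hist1h2ab also lost it without litter 121 (4 of 13 alternatives), and the Hist1h4d probe without litter 116, with the processed signals and with the value table (6 of 13). Hist1h4a lost it in these 6 and with normexp offset 16 (7 of 13). H3f3a turned to -0.042 with median centring. Without single litters, the means ranged from -0.52 to 0.065 for H2afj, -0.30 to 0.48 for H2afv, -0.12 to 0.079 for H2afy2, -0.15 to 0.26 for H2afy3, -0.0070 to 0.044 for H3f3a, -0.31 to 0.27 for H3f3b and -0.34 to 1.09 for Hist1h1a, each with a change of sign, and from -0.85 to -0.045 for H2afz, -0.60 to -0.18 for H2afx and -0.96 to -0.16 for Hist3h2a without one. Without single litters the sign was also kept by Hist1h1b (-0.66 to -0.10), Hist1h1d (-0.69 to -0.26), Hist1h2ai (-0.82 to -0.34) and Hist1h2ak (-0.84 to -0.33). It was kept too by H2afy (-0.26 to -0.079), Hist1h2ab (-0.71 to -0.42), Hist1h4a (-0.53 to -0.29) and the brighter Hist1h4d probe (-0.53 to -0.23). The slide could not be fitted as a random block, since 3 ratios on 2 slides left its correlation undefined. Spots of dim members such as Hist1h1t, Hist1h3a and H2afy2 lie near background, which limits their ratios.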
